A study of Schizosaccharomyces pombe with 6 samples.

Results

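The 37 genes described here encode the enzymes that build, remodel and digest the glucans of the fission yeast cell wall, together with the glycoproteins that sit in it or on it. They were chosen by the words of their descriptions in the deposited table (glucan, cell wall or cell surface glycoprotein, in any case), with genes on a set of subtelomeric clones and genes described by a Mug or Meu number set aside. The words matched 42 of the 6345 genes in the table, of which 5 lay on the clones and 0 had such a number, which left 37. No measured value enters this rule.

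RNA was sequenced from 3 *mkt1Δ* and 3 wild-type cultures of *Schizosaccharomyces pombe*, all in exponential growth in YES, a rich medium, at 32°C. The *mkt1Δ* strain (EHB2196) has the gene for Mkt1, a post-transcriptional regulator of RNA, replaced by the nourseothricin marker NatR, and the wild-type strain (EHB7) keeps that gene. Both strains are h+, carry ade6-210, leu1-32 and ura4-D18, and hold an ade6+ reporter at the Sph1 site of otr1R, in pericentromeric heterochromatin, so that "wild-type" refers to *mkt1* alone. Each genotype is represented by 1 strain.

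The value used for each gene is the authors' mean log2 CPM (read counts scaled to the size of the library) over the 6 libraries of both strains. The table gives this mean without its parts, so sequencing depth and the spread between replicates are unknown, and no test was possible. The authors' own comparison of *mkt1Δ* with wild-type was not used, so what follows is a description of levels in exponentially growing cells of both genotypes together. A gene that differed between the strains would have a value between those of the strains. Whether neighbours in the order of levels differ by more than the replicate error was not tested, and the deletion of *mkt1* was not checked in each library.

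To compare genes, the log2 of the summed exon length in kb was subtracted from the authors' mean, which gave a level in log2 CPM per kb. All 37 members and 5046 of the 5059 mRNAs of the table had a length, and ranks are given among these 5046 mRNAs. Marker genes were used to check the labelled state of growth. The growing-cell genes *act1*, *tef103*, *eno101* and *tdh1* had levels from 10.97 to 12.17 log2 CPM per kb, whereas 6 of 6 meiosis and sporulation genes (*mei4*, *rec8*, *rec12*, *spo4*, *spo6* and *dmc1*) were in the bottom 10% of mRNAs, at levels of -1.20 to 2.40. The 7 mating genes ranged between 1.11 and 5.17 log2 CPM per kb, with *mam2*, the receptor for P-factor, the highest.

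The fission yeast wall is made mainly of 1,3-beta-glucan and alpha-glucan, with 1,6-branched glucan and an outer coat of galactomannan carried on glycoproteins. Glucan synthases are large membrane proteins that extrude a polymer through the plasma membrane. Glucanosyltransferases then elongate and join the chains outside the cell, and glucanases cut them, as happens when the septum is dissolved to separate the daughter cells or when the ascus wall is opened to release spores. Surface glycoproteins, among them the flocculins, are long, serine- and threonine-rich proteins that mediate adhesion between cells.

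As a set, the members covered a wide span of levels around the centre of the transcriptome. Their median level was 4.93 log2 CPM per kb, against 5.33 over all 5046 mRNAs, and 17 of 37 (45.9%) lay above the median mRNA. Without scaling by length the direction turned, with a median of 6.53 log2 CPM over the members, against 6.20 over all mRNAs. The highest member, *gas2*, exceeded the lowest, SPBPJ4664.02, 539-fold per kb. Without scaling by length the ratio of these 2 genes was 70.5-fold, and the level of SPBPJ4664.02 is uncertain because of internal repeats (below). At the extremes, 6 of 37 members (16.2%) were in the top 10% of mRNAs and 8 (21.6%) in the bottom 10%, and the middle 50% of members spanned 2.82 on the log2 scale, against 2.20 for all mRNAs. All 37 members had a mean log2 CPM above 0, as did 4965 of the 5046 mRNAs, and the lowest member was *meu17* at 2.39. The number in the bottom 10% depended on the scaling by length, since 2 members were there when the deposited means were ranked without it.

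**Figure D1:**
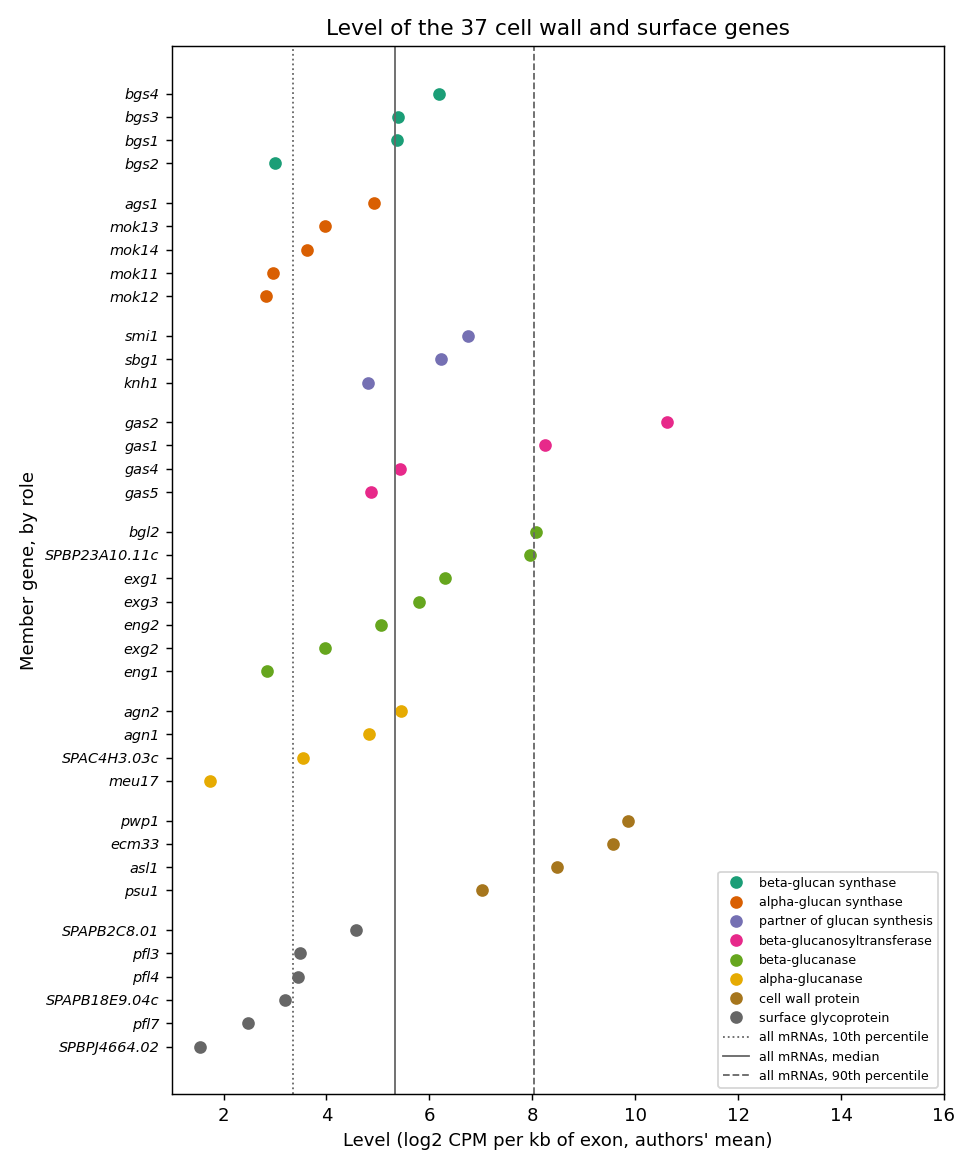
Each point is 1 member gene, grouped by role down the page, and the horizontal axis gives its level (authors' mean log2 CPM per kb of exon). Vertical lines mark the 10th percentile, median and 90th percentile of 5046 mRNAs (3.34, 5.33 and 8.03). The 4 cell wall proteins lie to the right of the median line, and the 5 alpha-glucan synthases and 6 surface glycoproteins lie to its left.

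**Figure D2:**
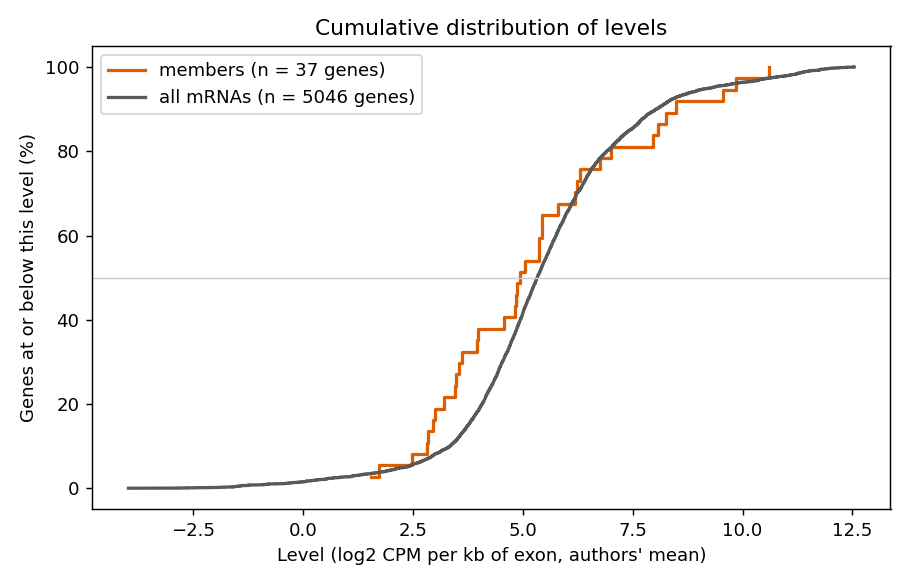
Cumulative share of genes (vertical axis, %) at or below each level (horizontal axis, authors' mean log2 CPM per kb of exon) for the 37 members and for 5046 mRNAs. The medians are 4.93 for the members and 5.33 for all mRNAs, and the curve of the members starts to rise at 1.54, above the lowest mRNAs.

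Among the 4 catalytic subunits of 1,3-beta-glucan synthase, *bgs4* had the highest level and *bgs2* the lowest. *bgs4*, whose product makes most of the wall's beta-glucan, was at 6.20 log2 CPM per kb (rank 1563 of 5046 mRNAs). *bgs3*, whose product is essential in growing cells, was at 5.38, and *bgs1*, whose product makes the linear glucan of the primary septum, was at 5.37. These values differ by 1.01-fold and give no order for the pair. *bgs2*, whose product makes the wall of the spore, was at rank 4639, in the bottom 10%, with a level 9.16-fold below that of *bgs4* (a difference of 3.20, *bgs4* minus *bgs2*, in log2 CPM per kb). The 4 proteins are close in sequence, with identities between 53.9% and 61.5% over aligned residues, and no 50-base stretch of any of them has a second copy in the genome. Part of *bgs2* (1318 bases, 21.7% of the gene) lies opposite the antisense RNA SPNCRNA.880, which has a deposited mean log2 CPM of 5.81, against 5.60 for *bgs2* itself. Whether reads were counted by strand is not given in the sources used here, so the level of *bgs2* is uncertain.

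Per kb of exon, the alpha-glucan synthases were lower than the vegetative beta-glucan synthases. *ags1*, which encodes the essential alpha-glucan synthase of growing cells, was at 4.93 log2 CPM per kb, followed by *mok13* at 3.98, *mok14* at 3.62, *mok11* at 2.96 and *mok12* at 2.83. None of the 5 lay above the median mRNA, and *mok11* and *mok12* were in the bottom 10%. *ags1* exceeded its paralogs by 1.94-fold to 4.30-fold. It stood 2.40-fold below *bgs4*. Without scaling by length *bgs4* was 2.16-fold above *ags1* in mean CPM. The Mok proteins are 43.3% to 52.3% identical to Ags1, and Mok14, the alpha-1,4-glucan synthase, is the short one, with 1369 residues against 2410 in Ags1. The *mok12*, *mok13* and *mok14* genes are known for roles in sporulation. Their levels, like that of *bgs2*, exceeded those of all 6 meiosis and sporulation markers named above, of which the highest was *rec12* at 2.40.

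These 9 synthase genes are long, from 4204 to 8667 bases of exon, and the scaling by length changes their standing. In deposited mean log2 CPM *bgs4*, *bgs3* and *bgs1* had 9.16, 8.18 and 8.06, against a median of 6.20 over all mRNAs. Per kb of exon the same genes lay between 5.37 and 6.20, against a median of 5.33.

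**Figure D3:**
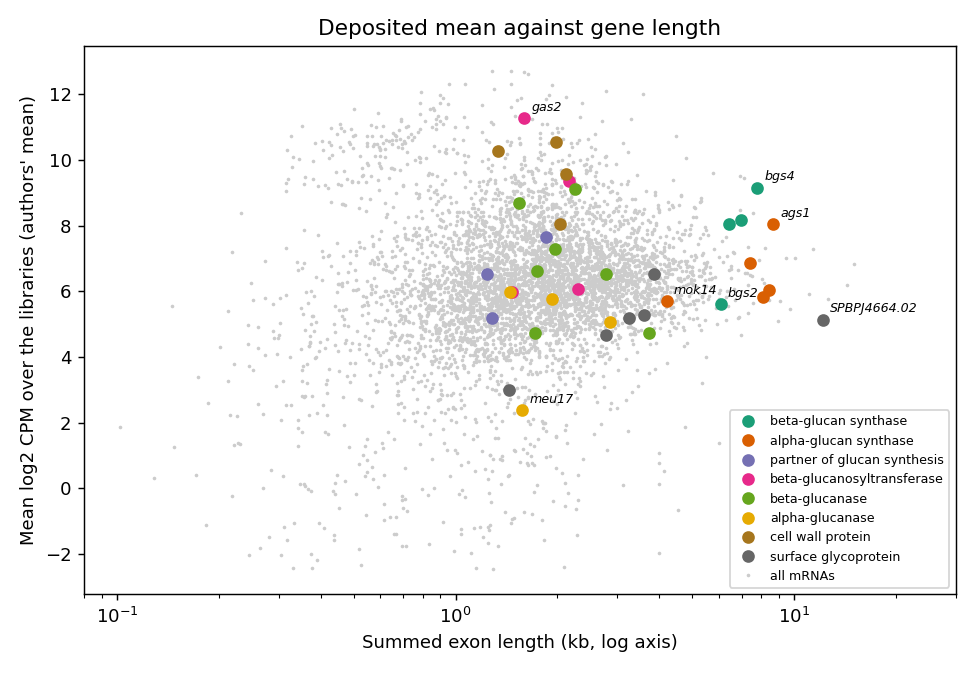
Deposited mean log2 CPM (vertical axis, authors' mean over the 6 libraries) against summed exon length (horizontal axis, kb, log axis) for the 37 members, coloured by role, and 5046 mRNAs in grey. The 9 glucan synthases lie at the right, and SPBPJ4664.02 is the longest member.

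Of the partners of glucan synthesis, *smi1* lay above all 9 synthases per kb of exon, and *sbg1* was at about the level of *bgs4*. By coding length *sbg1* was higher, at 7.41 log2 CPM per kb against 6.61 for *bgs4*. In unscaled mean log2 CPM *smi1* (7.65) and *sbg1* (6.54) were below *bgs4*, *bgs3*, *bgs1* and *ags1*. *smi1*, annotated in RefSeq as an adaptor of beta-glucan synthase, had a level of 6.76 log2 CPM per kb, and *sbg1*, which encodes a small membrane protein that works with Bgs1, had 6.23. *knh1*, a KRE9 family gene of 1,6-beta-glucan synthesis, was lower, at 4.82.

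The 1,3-beta-glucanosyltransferases, which lengthen and cross-connect glucan chains, were spread widely in level. *gas2* had the highest level of all 37 members, 10.61 log2 CPM per kb (rank 133 of 5046), and *gas1*, the other main transferase of growing cells, had 8.25 (rank 435). *gas4*, described as specific to sporulation, was at 5.44 (rank 2389) and *gas5* at 4.86 (rank 3140). *gas2* thus exceeded *gas1* 5.11-fold, *gas4* 36.0-fold and *gas5* 53.8-fold per kb of exon. By coding length the last ratio was 41.3-fold. Gas4 and Gas5 are the most alike in sequence, at 55.9% identity, against 37.4% to 43.9% for the other pairs. With coding length in place of exon length, *gas4* and *gas5* differed by 1.06-fold, and without scaling *gas4* was at 0.951 of *gas5*, so the pair has no firm order.

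A pair of members of this family, *gas2* and *gas5*, lie opposite another gene over most of their length. In the ASM294v3 annotation 85.1% of *gas2* is covered on the other strand by SPBC29A10.09c (*tri1*), with a mean log2 CPM of 3.83, against 11.28 for *gas2*. For *gas5* the covered share is 84.4%, and the opposite gene SPAC11E3.12 has a mean log2 CPM of 5.93, against 6.06 for *gas5*. The libraries were stranded, but whether reads were counted by strand is not given in the sources used here. The levels of both *gas2* and *gas5* are therefore uncertain. The same limit applies to all 16 of the 37 members that overlap a gene on the opposite strand.

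The beta-glucanases ranged over 5.24 on the log2 scale. *bgl2*, a predicted beta-glucosidase of the wall, was highest at 8.08 log2 CPM per kb, followed by SPBP23A10.11c, described as a circularly permuted 1,3-beta-glucanase, at 7.96. The exo-glucanase genes followed as *exg1* at 6.31, *exg3* at 5.81 and *exg2* at 3.97. *eng2*, an endo-1,3-beta-glucanase that takes part in opening the ascus wall, was at 5.05. *eng1*, the endo-glucanase that dissolves the primary septum, was lowest at 2.84 (rank 4691), 37.9-fold below *bgl2* and 4.65-fold below *eng2*. Antisense RNAs lie opposite 98.0% of *exg2* and 80.6% of *exg3*, at mean log2 CPM values of 4.17 and 1.04, against 4.75 for *exg2* and 6.61 for *exg3*. With the counting by strand unknown, the levels of *exg2* and *exg3* are uncertain.

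Among the enzymes that cut alpha-linked glucan, both 1,3-alpha-glucanases were near the centre of the transcriptome. *agn2*, which acts on the ascus wall, had a level of 5.44 log2 CPM per kb, and *agn1*, which acts with Eng1 in cell separation, had 4.83. The ratio of the pair was 1.52-fold by exon length and 1.12-fold by coding length. The predicted 1,4-alpha-glucosidase SPAC4H3.03c was at 3.55, and *meu17*, a glucan-alpha-1,4-glucosidase gene, was at 1.73, the second lowest of all members. An antisense RNA (SPNCRNA.1494) covers 95.5% of *meu17* and had the higher deposited mean log2 CPM, 4.66, against 2.39 for *meu17*. With the counting by strand unknown, the level and rank of *meu17* are uncertain.

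Genes of the cell separation programme did not share a level. Apart from *agn1* and *eng1*, which are members, the list for this programme held *adg1* at 6.74 log2 CPM per kb, *adg3* at 4.83 and *adg2* at 4.06. Agn1 and Eng1 both act in cell separation, and *agn1* was 3.99-fold above *eng1* per kb of exon. Without scaling by length the ratio was 2.07-fold.

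The 4 genes grouped here as cell wall proteins were high as a group. The descriptions of *gas1* and *gas5* hold the same words, but these genes were placed with the transferases. Of these, *gas1* was at 8.25 log2 CPM per kb and *gas5* at 4.86, below the median mRNA (5.33). *pwp1* was at 9.85 log2 CPM per kb (rank 195 of 5046), *ecm33* at 9.56 (rank 223), *asl1* at 8.49 (rank 364) and *psu1* at 7.02 (rank 961). Pwp1 and Ecm33 are anchored through glycosylphosphatidylinositol (GPI), Asl1 is a predicted O-glucosyl hydrolase and Psu1 a predicted beta-glucosidase. RefSeq names the *pwp1* gene (SPCC1322.10) *knh2*, of the KRE9 family to which *knh1* also belongs. The products of *knh1* and *pwp1* share 20.8% of aligned residues, and *pwp1* was 32.8-fold above *knh1*. The 3 highest members, *gas2*, *pwp1* and *ecm33*, made up 59.8% of the summed CPM per kb of all 37, and *gas2* alone made up 28.8%. Without scaling by length the shares of summed CPM were 48.0% and 22.9%.

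Per kb of exon, the surface glycoproteins were at the opposite end. The 3 highest were SPAPB2C8.01, described as an adhesion molecule, at 4.58 log2 CPM per kb, *pfl3* at 3.49 and *pfl4* at 3.45, and the 3 lowest were SPAPB18E9.04c at 3.20, *pfl7* at 2.48 and SPBPJ4664.02 at 1.54. None of the 6 was above the median mRNA and 3 were in the bottom 10%. Together they made up 1.18% of the summed CPM per kb of the members, and 2.18% of their summed CPM without scaling by length. SPBPJ4664.02, described as a flocculin related to Gsf2, is the longest member, with 12171 bases of exon and a product of 3971 residues, and its unscaled mean log2 CPM was 5.14, against a median of 6.20 over all mRNAs. The non-coding RNA SPNCRNA.953 lies opposite 20.5% of SPAPB18E9.04c, at a mean log2 CPM of 6.04 against 4.68 for that gene. Opposite 22.5% of *pfl4* lies SPNCRNA.1201, at 1.46 against 5.29 for *pfl4*.

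Some of these genes hold internal repeats. In 4 of the 37 members some 50-base windows of the transcript occur more than once in the genome, and all 4 are surface glycoprotein genes. The share of such windows was 66.1% in SPBPJ4664.02, 43.2% in SPAPB2C8.01, 33.7% in *pfl3* and 32.3% in SPAPB18E9.04c. In each case the further copies were within the same gene, and 0% of windows had a copy elsewhere. With 100-base windows the shares were 45.8%, 28.4%, 22.9% and 12.8% in the same order. Reads that fall entirely within such repeats align to more than 1 place, and how the authors treated them is not given in the sources used here, so these 4 levels are uncertain. The other 33 members had no repeated window, *pfl4* (level 3.45) and *pfl7* (level 2.48) included. The part of repeats in the low levels was not tested.

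Features of the products were computed from their sequences. Descriptions such as cell surface glycoprotein are in part assigned from protein sequence, so these features are not independent of the choice of members and are given as a description. The mean Kyte-Doolittle hydropathy of the first 25 residues had a median of 0.948 over the members, against -0.372 over all mRNA products. A hydrophobic stretch near the start of the protein, as a signal for entry into the secretory pathway has, was defined as a window of 9 residues within the first 25 with a mean above 1.6, a measure and a limit chosen after the data were seen. It was found in 27 of 37 members (73.0%), against 17.8% of all mRNA products. It was present in all 6 surface glycoproteins, 4 of 4 cell wall proteins, 4 of 4 glucanosyltransferases and 5 of 5 alpha-glucan synthases, and in 0 of 4 beta-glucan synthases, whose first residues are cytoplasmic. The glucanases without it were *eng2*, *exg3*, *exg2* and SPAC4H3.03c.

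A hydrophobic end of the protein, as precursors of GPI-anchored proteins have, was found in 6 of 37 members (16.2%) when the last 20 residues were scored by the same limit, against 1.68% of all mRNA products. The 6 were *gas1*, *gas4*, *pwp1*, *ecm33*, SPAPB18E9.04c and SPBPJ4664.02. *gas5* was just under the limit, at 1.55, and *gas2*, the highest member, had -0.66.

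Serine and threonine, the residues that carry O-linked mannose, made up a median of 17.2% of the members' products, against 13.9% over all mRNA products. Of the 37 members, 15 (40.5%) were above the 95th percentile of all products, which lay at 20.7%, and these 15 included all 6 surface glycoproteins and all 4 cell wall proteins. SPAPB18E9.04c had 56.8%, SPBPJ4664.02 55.2% and *pwp1* 42.0%, the 3 highest. Both groups, which were formed after the data were seen, were above that limit, and their levels did not overlap. The transferase gene *gas5*, whose description also holds the words cell wall protein, had 24.9% and a level of 4.86, close to SPAPB2C8.01 at 4.58. Surface glycoproteins with 31.0% to 56.8% serine and threonine had levels of 1.54 to 4.58 log2 CPM per kb, whereas the cell wall proteins with 25.2% to 42.0% had 7.02 to 9.85. Across the 37 genes, which share the same 6 libraries and are not independent, Spearman's rho between the serine and threonine share and the level was 0.10. Over the 31 members other than surface glycoproteins it was 0.56, and over all 5046 mRNAs it was -0.22. The subset of 31 was chosen after the data were seen and leaves out genes with high shares and low levels. Its rho is therefore a description of that subset only.

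**Figure D4:**
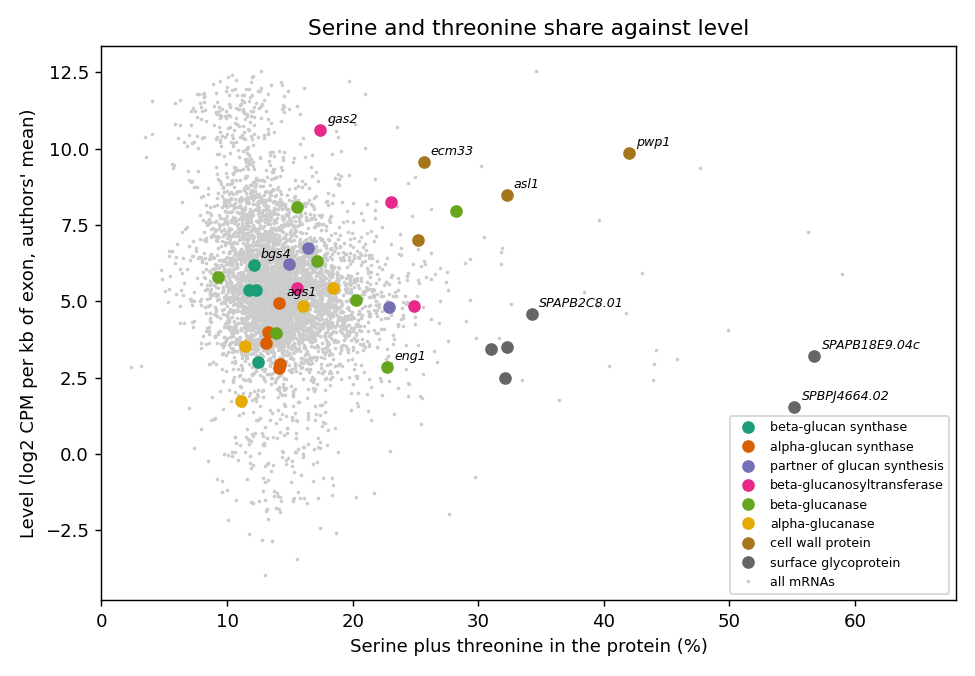
Level (vertical axis, authors' mean log2 CPM per kb of exon) against the share of serine plus threonine in the protein (horizontal axis, %) for the 37 members, coloured by role, and 5046 mRNAs in grey. The cell wall proteins (25.2% to 42.0%) lie at levels of 7.02 to 9.85 and the surface glycoproteins (31.0% to 56.8%) at 1.54 to 4.58.

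Introns were rare among the members, with 35 of 37 (94.6%) having none, against 51.2% of all mRNAs. The exceptions were *exg3* and *mok13*, with 1 intron each. The coding sequences of the members had a median GC content of 41.0%, against 39.6% over all mRNAs.

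In the order of protein-coding genes in ASM294v3, 1 pair of members were direct neighbours. *gas1* and *bgs3*, a transferase and a synthase of 1,3-beta-glucan, lie side by side and are transcribed away from each other. *gas1* was at 8.25 and *bgs3* at 5.38 log2 CPM per kb, a 7.33-fold ratio, so the divergent arrangement did not go with equal levels.

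Other genes of wall synthesis and its control were given by a list of 32 names, of which 31 were found in the table, and 30 of these are not members. Their median level was 5.49 log2 CPM per kb, 16 of 30 lay above the median mRNA, 1 was in the top 10% and 4 were in the bottom 10%. The highest was *rho1*, the GTPase that activates beta-glucan synthase, at 9.67 (rank 213). The guanine nucleotide exchange factors for Rho1 were spread out, with *rgf2* at 5.86, *rgf1* at 4.55 and *rgf3*, the lowest of the list, at 2.41.

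The kinases of the cell integrity pathway lay between 3.99 for *mkh1* and 6.06 for *pek1*, with *pmk1*, the MAP kinase itself, at 5.77 and the protein kinase C genes *pck1* and *pck2* at 5.24 and 5.09. Of the wall sensors, *mtl2* was at 5.31 and *wsc1* at 3.40. The genes of mannan and O-mannose synthesis (*och1*, *mnn9*, *anp1*, *gma12*, *gms1*, *pvg1*, *ogm1*, *ogm2* and *ogm4*) ran from 5.41 to 7.70, all above the median mRNA. The chitin synthase genes *chs1* and *chs2* were at 2.98 and 3.31, both in the bottom 10%.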

How the data were processed

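Total RNA from 3 *mkt1Δ* and 3 wild-type cultures was made into stranded mRNA libraries. Per the study's methods and the submitters' processing notes, the authors trimmed reads (cutadapt 1.8.3), aligned them to ASM294v2 (STAR 2.5), counted them per gene in union mode (HTSeq 0.6.1), discarded genes with fewer than 20 reads and compared the strains with edgeR 3.12.0. The deposited table has 1 pooled column of values, the authors' mean log2 CPM over the 6 libraries, and 3 columns of the authors' comparison (fold change, p-value and adjusted p-value), which were not used. It has 0 columns of single libraries, so depth and replicate spread are unknown and the planned test of *mkt1Δ* against wild-type could not be run.

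Exon length, coding sequence and gene order came from RefSeq's ASM294v3, another build, so no coordinates or sequences are given. Of 6345 genes 6299 matched by identifier. Proteins were translated from the annotated coding sequence and aligned globally with BLOSUM62. Python 3.11.15, numpy 2.4.6, pandas 2.3.3, scipy 1.17.1, Biopython 1.88 and matplotlib 3.10.9 were used, and the ranking was tested on simulated data. The genes named are the synthases, transferases and glucanases, the 5 highest and 5 lowest members, and the 3 highest and lowest surface glycoproteins. Other members, and the wall regulators other than the highest and lowest, were named to show their roles after their values were seen. Members and lists were chosen with earlier results of these data known. *sup11* of the wider list was not matched. The alternatives were coding length, no length scaling, a mean log2 CPM above 0, all genes as the background and all 42 genes with the words. The promoter motif search and 1 gene of the wider list are not reported here. Windows of 100 bases, the hydrophobic window and its limit, and the role groups were chosen after seeing the data.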

Additional observations from a re-analysis of the deposited data

How the results depend on the processing

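The median level, the share of members above the median mRNA and the counts in the top and bottom 10% were recomputed under 5 alternatives, and a shift of more than 1.5-fold, or for the share one outside its 95% Wilson interval, was counted as a move. Without scaling by length the median was 6.53, a mean log2 CPM rather than a value per kb, against 6.20 over all mRNAs, so that the members turned to above the median mRNA, and 2 members were in the bottom 10% in place of 8. With non-coding RNAs in the background 0 members were in the bottom 10%. The other 17 values of these 4 results stayed within the limits, with 35.1% to 51.4% of members above the median, 5 to 8 in the top 10% and 10 to 12 in the bottom 10% where that count changed. Coding length kept 7 of 9 glucan synthases at their place in the order, *mok11* and *bgs2* changing places. No paired analysis was possible because the table holds 1 mean over all libraries, and leaving out each replicate, other normalizations and a test of the strains were not run for the same reason. Genes were not replicates here, and neighbours in the order of levels cannot be separated by replicate error.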

Other observations

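The 5 genes that hold the same words but lie on the subtelomeric clones all lay below the median member. In log2 CPM per kb they had 4.35 for SPBC1289.01c, a regulatory factor of 1,3-beta-glucan synthase, 3.02 for SPAC186.01 (*pfl9*), 2.42 for SPAC1F8.06 (*pfl8*), 1.76 for SPBC1289.15 (*pfl5*) and -1.99 for SPAC977.07c (*pfl6*). The last 4 encode surface glycoproteins, each in the bottom 10% of mRNAs per kb of exon. By the same measure, 3 of the 6 surface glycoprotein genes kept as members were there. In GC content of the coding sequence, the 3 highest members had 45.2% (*gas2*), 48.9% (*pwp1*) and 43.4% (*ecm33*), against a median of 41.0% over the members. Spearman's rho between GC content and level was 0.50 over the 37 members and 0.47 over all 5046 mRNAs, both across genes of the same libraries.

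By the chromosome letter of their identifiers, 16 members are on chromosome I, 16 on II and 5 on III (43.2%, 43.2% and 13.5%), against 45.6%, 36.4% and 18.0% of mRNAs.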
